A study of Mus musculus with 8 samples.

Results

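Vehicle-treated cultures of undifferentiated spermatogonia (Aundiff) are described by 4 RNA-seq libraries, chosen by their treatment label from the 8 libraries of the series. No value of the AGX51-treated libraries was used. Each library came from a separate culture of a wild-type adult mouse. The labels give the strain as CBA/J, while the study's supplemental procedures give C57BL/6J. Testis cells were enriched with an antibody to the surface protein CD9 and grown on inactivated mouse embryonic fibroblasts in medium with the growth factors GDNF, bFGF and EGF. Feeder cells were then depleted on plastic, the spermatogonia grew for 4 days on Geltrex, a basement membrane gel, and vehicle (DMSO) was given for 20 h. The cultures are therefore a model of the stem and progenitor pool without its somatic niche, and no library of the testis itself was analysed here. The totals were 8330176 to 9586105 counts per library, and 3 counts, the limit that a count of 0 allows, correspond to 0.313 to 0.360 CPM. CPM, the unit of all levels, is the count of a gene scaled to a common library total of 1000000. CPM per kilobase of merged exons (CPM per kb) is given where genes are compared. The library protocol adds the sample index at the poly(A) tail and cuts the pooled samples with a transposase. Reads assigned to a sample are therefore expected to lie near the 3′ end, so counts are not expected to scale with transcript length. Orders per kb can carry an effect of exon length, and both scales are shown. Every pair of libraries differed by more than counting error (a chi-square over its degrees of freedom of 5.75 to 14.8), and across genes their log2(CPM + 1) values had Pearson's r of 0.985 to 0.990, given as a description. Of 17167 listed genes, 13719 (79.9%) reached 1 CPM in 4 of 4 libraries, and the 1717 genes of highest mean CPM make up the top decile (10%). Members of the gene lists below are called analysed where their name was found, without a duplicate, among the listed genes.

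Spermatogonial stem cells (SSCs) sit on the basement membrane of the seminiferous tubule and either renew themselves or form progenitors that later differentiate. GDNF from neighbouring somatic cells binds the co-receptor GFRA1 and signals through the kinase RET, while FGF2 acts with it, and both raise transcription factors such as ETV5 and BCL6B. KIT, a receptor tyrosine kinase, and STRA8, a factor of meiotic entry, mark the later, retinoic acid-driven steps. ID proteins hold back bHLH transcription factors, and ID4 is used as a marker of SSCs.

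The 8 genes taken as markers of Aundiff were all measured well above 1 CPM in every library, and 5 of the 8 were in the top decile. Dazl, an RNA-binding protein needed for germ cell development, was at 967, 757, 851 and 758 CPM in vehicle replicates 1 to 4 (mean 833 ± 99.3, SD, n = 4). Ddx4, the germ cell RNA helicase also called VASA, was at 280, 306, 271 and 235 CPM (273 ± 29.3). Ccnd2, a D-type cyclin that GDNF raises in cultured Aundiff, was at 1530, 1512, 1719 and 1778 CPM (1635 ± 134). Dazl was highest in replicate 1 and Ccnd2 in replicate 4, and for Ddx4 replicate 4 was the lowest. Id4 was at 175, 200.5, 170.5 and 168 CPM (179 ± 14.9). Gfra1 was at 130.5, 133, 135.5 and 92.1 CPM (123 ± 20.5), and its signalling partner Ret was at 114, 114, 109.7 and 95.7 CPM (109 ± 8.84). Both GDNF receptor genes were lowest in replicate 4, and for Gfra1 the other 3 libraries lay close together. Zbtb16, which encodes the Aundiff factor PLZF, was at 97.0, 85.5, 81.9 and 85.9 CPM (87.6 ± 6.52), and Etv5 was at 45.5, 41.7, 49.5 and 37.8 CPM (43.6 ± 5.02). For 5 of the 8 markers the lowest library was replicate 4, which was the lowest for 34.7% of all genes at 1 CPM in 4 of 4 libraries.

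**Figure D1:**
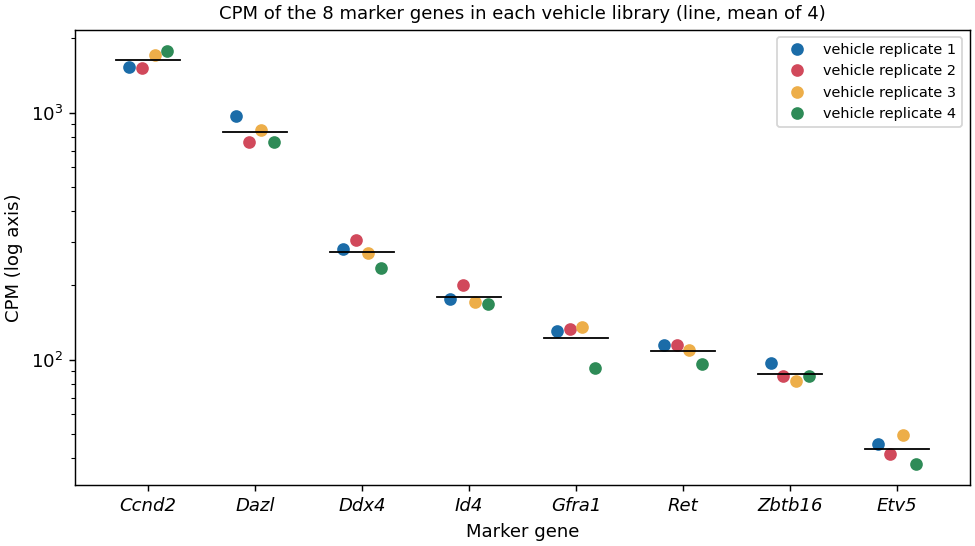
CPM of the 8 marker genes (log axis) in each of the 4 vehicle libraries, coloured by replicate, with a line at the mean of 4. The means run from 1635 CPM for Ccnd2 to 43.6 CPM for Etv5, and the Gfra1 point of replicate 4 lies below the other 3.

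Ranked by mean CPM among the 17167 genes, Ccnd2 was 44th, Dazl 125th, Ddx4 650th, Id4 1079th, Gfra1 1661st, Ret 1905th, Zbtb16 2410th and Etv5 4428th. Per kb, the order changed: Dazl came first at 218 CPM per kb and Ccnd2 followed at 174, since Ccnd2 has 9.41 kb of exons and Dazl 3.82 kb. Ddx4 was at 90.5, Id4 at 46.4 and Gfra1 at 22.4 CPM per kb. From Dazl down to Gfra1, the ranges over the 4 libraries did not overlap between neighbours. Gfra1, Zbtb16 at 16.6 and Ret at 16.04 CPM per kb had overlapping ranges, and Etv5 at 10.6 lay below Ret in every library. Within single libraries the CPM rank of Gfra1 was 1468 to 1559 in replicates 1 to 3 and 2254 in replicate 4. The rank of Dazl ran from 102 to 145 and that of Ccnd2 from 35 to 58.

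**Figure D2:**
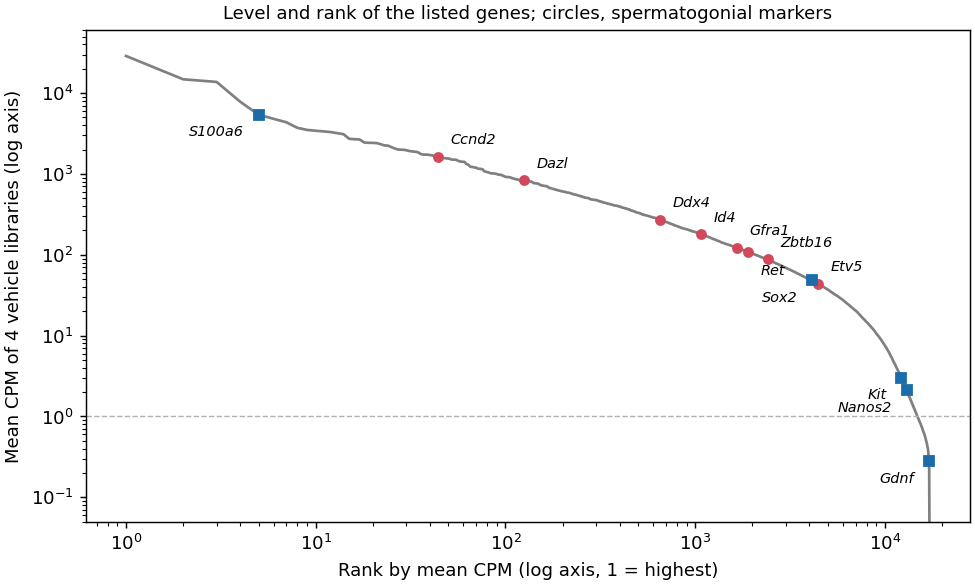
Mean CPM of the 4 vehicle libraries against rank, both on log axes, for all listed genes (line), the 8 markers (circles) and 5 other genes (squares), with a dashed line at 1 CPM. The markers fall between rank 44 (Ccnd2) and rank 4428 (Etv5), while Gdnf, at rank 17050, lies below 1 CPM.

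The promoters of 4 marker genes are shown so that the sequence from which these transcripts start can be read beside their levels. RefSeq windows on GRCm38.p6 were matched by symbol for 5 of the 8 markers (6 windows, since Etv5 has a pair). The motif CCAAT, searched on both strands in the 250 bases before the start, was in 6 of these 6 windows, against 33.8% of all 32851 windows of that length. Capitals mark CCAAT or its reverse complement ATTGG, and each sequence runs 5′ to 3′ toward the start of its gene. The window of Dazl is chr17:50293621-50293870 on the minus strand, that of Ddx4 chr13:112652311-112652560 on the minus strand, that of Gfra1 chr19:58455399-58455648 on the minus strand and that of Id4 chr13:48260866-48261115 on the plus strand.
Dazl: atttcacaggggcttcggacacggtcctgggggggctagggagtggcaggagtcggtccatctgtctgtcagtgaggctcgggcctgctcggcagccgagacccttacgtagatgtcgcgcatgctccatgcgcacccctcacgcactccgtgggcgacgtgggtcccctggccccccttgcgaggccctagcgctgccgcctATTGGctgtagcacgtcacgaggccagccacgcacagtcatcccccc
Ddx4: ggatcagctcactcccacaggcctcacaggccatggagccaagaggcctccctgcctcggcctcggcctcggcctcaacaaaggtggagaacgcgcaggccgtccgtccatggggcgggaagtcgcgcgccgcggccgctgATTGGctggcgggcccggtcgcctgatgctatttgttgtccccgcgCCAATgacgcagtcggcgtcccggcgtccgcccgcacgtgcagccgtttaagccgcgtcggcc
Gfra1: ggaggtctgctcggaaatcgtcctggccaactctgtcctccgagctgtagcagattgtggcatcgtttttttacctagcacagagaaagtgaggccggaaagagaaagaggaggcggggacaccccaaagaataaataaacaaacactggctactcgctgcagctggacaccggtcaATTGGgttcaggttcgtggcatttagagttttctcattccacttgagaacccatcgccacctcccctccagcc
Id4: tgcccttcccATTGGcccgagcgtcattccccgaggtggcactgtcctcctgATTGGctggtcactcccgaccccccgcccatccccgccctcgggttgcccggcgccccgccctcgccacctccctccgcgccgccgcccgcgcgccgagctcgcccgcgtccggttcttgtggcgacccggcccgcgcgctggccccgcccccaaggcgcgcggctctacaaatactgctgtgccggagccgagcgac
The ATTGG of Dazl begins 47 bases before the start and that of Gfra1 73 bases before it, while Ddx4 holds matches at 109 and 63 and Id4 at 240 and 198 bases. Ddx4 also holds CACGTG, a motif found in 6.02% of all windows and, on both strands, in 6 of 22 windows of 14 germ cell RNA regulators. A match is a description of these letters and was not tested as a binding site.

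Across all listed genes, some features of promoter windows differed between genes of low and of high level. The 15176 windows of 11926 matched genes were divided into 10 groups by the mean CPM of the gene. CCGGAAG, the core recognised by ETS factors, was in 4.99% of windows in the lowest group (up to 0.801 CPM) and in 20.3% in the highest group (118 CPM and above), against 12.4% of all windows of these listed genes. The ratio of observed to expected CpG had a median of 0.380 in the lowest group and 0.811 in the highest. CCGGAAG itself holds a CG, and its share was not tested apart from the CpG ratio. CCAAT was in 31.5% and 36.1% of windows in those groups and TATAAA in 11.2% and 6.69%. Neither changed steadily: counted from the lowest group, CCAAT was most frequent in group 5 (38.6%) and TATAAA least frequent in group 6 (4.99%). These shares describe windows, which are not independent replicates.

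A small part of the genes held much of the RNA. The 100 highest genes of each library took 22.0% to 24.4% of its counts, and 676 to 769 genes were enough to reach 50%. By mean CPM, 89 genes were at 1000 or above and held 22.2% of the counts, 1991 genes between 100 and 1000 held 48.7%, and 2336 genes were below 1 CPM. Genes encoded in mitochondrial DNA took 5.68%, 6.70%, 5.51% and 5.68% of the counts in replicates 1 to 4 (for replicate 2 the Wilson 95% interval was 6.68% to 6.71%, and intervals and floors cover counting error only). The share was highest in replicate 2. The mitochondrial 16S ribosomal RNA gene mt-Rnr2 was at 25756, 35249, 28321 and 25982 CPM, which is also highest in replicate 2, and mt-Cytb, encoding cytochrome b, was at 13762 ± 1531 CPM. mt-Rnr1, the 12S ribosomal RNA, was at 4807 ± 483 CPM and was highest in replicate 4.

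Among nuclear-encoded genes, the highest by CPM was Gm42418, a lincRNA model that overlaps the ribosomal RNA repeat, at 14841 ± 3011 CPM, followed by the nuclear RNA Malat1 at 7819 ± 1102. The 20 highest held 10 ribosomal protein genes, led by Rps19 at 4358 ± 287, Rpl4 at 3426 ± 356 and Rps12 at 3363 ± 700 CPM. Rps12 was at 4333 CPM in replicate 2 and at 2746 to 3394 in the others. Cytosolic ribosomal protein genes as a family (83 of 83 at 1 CPM in 4 of 4, 79 in the top decile) took 9.48% of the counts. This family and the next were picked by name after the highest genes were seen. Their sum was 100649, 95693, 93278 and 89590 CPM in replicates 1 to 4, highest in replicate 1 and lowest in replicate 4. Proteasome subunit genes summed to 14707 ± 905 CPM, with 30 of 39 in the top decile. The other nuclear-encoded genes of the 20 highest were S100a6, Prdx1 (a peroxide-reducing enzyme, 3196 ± 338), the secreted phosphoprotein Spp1, Actb (2451 ± 380), the poly(A)-binding protein Pabpc1 (2426 ± 108), the galectin Lgals1, the ubiquitin gene Ubb (2242 ± 214) and the transcription cofactor Sub1 (2156 ± 203). Spp1 was at 1946, 2457, 2382 and 3919 CPM and Lgals1 at 1919, 2148, 1969 and 2985 CPM, both highest in replicate 4. Pabpc1 had the smallest spread of the 20, with a coefficient of variation (CV, SD over mean) of 4.47%.

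Genes on the X chromosome took 2.57% ± 0.0830 of the counts. At least 1 CPM in 4 of 4 libraries was reached by 496 of 620 listed X genes and by 9 of 10 listed Y genes, shares of 80.0% and 90.0% against 79.9% for all genes. Male germ cells transcribe many X-linked genes before the X is silenced in meiosis. Taf7l, an X-linked germ cell form of a TFIID subunit, was at 327, 320, 339 and 303 CPM, and the mRNA export gene Nxf2 at 335, 318, 313.5 and 271.5 CPM. By CPM the range of Nxf2 overlapped that of Taf7l. Per kb, Taf7l at 143 lay above Nxf2 at 121 CPM per kb without overlap. Usp26 (149 ± 9.25), the meiosis gene Tex11 (145 ± 19.7), Tktl1 (56.3 ± 7.67) and Rhox13 (40.8 ± 3.55 CPM) were also measured in every library. Of the Y genes, Eif2s3y, a translation factor required for spermatogonial growth, was at 96.3, 96.3, 94.4 and 71.1 CPM, and Ddx3y was at 32.5 ± 3.90. Xist, the RNA that silences an X chromosome in female cells, was at 14.1, 19.6, 18.2 and 25.3 CPM in these cultures, highest in replicate 4.

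The medium supplied GDNF, bFGF and EGF, and the genes of their receptors differed widely in level. Per kb, among the 21 of 23 receptor genes analysed here, the GDNF receptor pair came first, Gfra1 at 22.4 and Ret at 16.04 CPM per kb with overlapping ranges. Fgfr1, an FGF receptor, was next at 8.45 CPM per kb (83.5 ± 9.72 CPM), and its range overlapped that of Igf1r, the IGF1 receptor, at 6.97 (117 ± 10.4 CPM). Per kb, the ranges of Ret and Fgfr1 did not overlap. By mean CPM the order differed, and Igf1r stood between Gfra1 and Ret. Il6st and Lifr, which form the receptor of the cytokine LIF, were at 67.5 ± 9.72 and 36.8 ± 6.05 CPM. The other FGF receptors were low: Fgfr3 was at 1.87 ± 0.571 CPM and Fgfr2 at 0.719 ± 0.334. The EGF receptor gene Egfr was at 4.25 ± 0.628 CPM, while Erbb2 and Erbb3, which pair with it, were at 11.8 ± 2.11 and 17.3 ± 1.33. Other co-receptors of the GDNF family were also low, with Gfra4 at 7.02 ± 1.29, Gfra2 at 2.61 ± 0.549 and Gfra3 at 0.773 ± 0.575 CPM. These low receptor genes were named after their values were seen. Of the 21 receptor genes, 18 reached 1 CPM in 4 of 4 libraries and 1, Gfra1, was in the top decile.

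Of the 14 ligand genes analysed here, 11 reached 1 CPM in 4 of 4 libraries, and their median was 3.54 CPM. Gdnf itself was at 0.548, 0.360, 0.111 and 0.104 CPM (5, 3, 1 and 1 counts), which is at or near the level of 3 counts. Fgf2, the gene of bFGF, was at 2.12 ± 0.683 CPM and Egf at 1.70 ± 0.436. The highest ligand genes were Csf1, a macrophage growth factor that also acts on SSCs, at 132, 235, 176 and 230 CPM, and Inhba, the activin subunit, at 109.1, 157, 109.3 and 172 CPM. Both were higher in replicates 2 and 4 than in 1 and 3, without overlap between those pairs. The pairs were formed after the values were seen, no label sets them apart, and the separation was not tested. Igf2 was at 44.8 ± 5.22, Wnt5a at 19.8 ± 4.60 and the chemokine Cxcl12 at 10.6 ± 4.48 CPM. The summed level of the 14 analysed ligand genes was 320, 489, 378 and 518 CPM. Fibroblast markers, described below, summed to 3759, 4761, 4564 and 6127 CPM, and their part in the ligand levels was not tested.

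Genes that GDNF and FGF raise ran from 1.16 CPM (Etv1) to 1635 CPM (Ccnd2), with a median of 43.1 CPM. Of the 20, which include Id4, 3 were in the top decile. At least 1 CPM in 4 of 4 libraries was reached by 19 of 20, against 79.9% of all listed genes. Dusp6, a phosphatase that limits ERK, was at 272, 203, 210.5 and 202 CPM, highest in replicate 1. Spred1, another brake on this pathway, was at 79.5 ± 7.71, the POU factor Pou3f1 at 59.4 ± 5.73, Etv4 at 56.8 ± 9.42, the transcription repressor Bcl6b at 55.1 ± 7.72 and Egr2 at 52.5 ± 8.97 CPM. Spry2 (42.5 ± 6.72), Spred2 (25.9 ± 2.38), Spry4 (20.6 ± 2.67), Mycn (19.06 ± 3.39) and Fos (5.54 ± 1.49 CPM) belong to the same list. Etv1 did not reach 1 CPM in every library (1.16 ± 0.502). Lhx1, a GDNF-induced homeobox factor of SSCs, was at 57.6, 19.9, 43.6 and 34.8 CPM. Replicate 2 was the lowest for Lhx1, and the highest library was 2.89 times the lowest. Of the 19 genes at 1 CPM in 4 of 4, 12 were lowest in replicate 4, against 34.7% of all such genes. With TMM, RLE or upper quartile scaling 10 were, against 26.5% to 28.7%, and without mitochondrial genes 12, against 35.3%. Id4, Bcl6b, Egr2, Etv5, Tspan8, Lhx1, Spry4, Egr3 and T are also in the SSC list described next, so the counts of these lists are not independent.

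Genes associated with SSCs were nearly all measured, at very unequal levels. Of 19 genes, 18 reached 1 CPM in 4 of 4 libraries and 2 were in the top decile. Beside the markers, Bmi1, a Polycomb gene, was at 60.5 ± 4.62 CPM, the tetraspanin Tspan8 at 40.5 ± 5.56, Foxc2 at 26.5 ± 1.87 and Plvap at 17.0 ± 3.66. Eomes, a T-box factor of an SSC subset, was at 10.4, 6.48, 13.9 and 8.66 CPM, and Pdx1 at 8.69 ± 1.67. Pax7 (2.53 ± 0.590), T (2.30 ± 1.17) and Nanos2 were the lowest of those in every library at 1 CPM or more, and Shisa6 was at 0.538 ± 0.273. Nanos2, an RNA-binding protein that keeps SSCs undifferentiated in the testis, was at 3.29, 1.44, 2.00 and 1.67 CPM. For 12 of the 18 genes the lowest library was replicate 4, and their summed level was 851, 809, 842 and 686 CPM. With other scalings (TMM, RLE, upper quartile, or without mitochondrial genes) replicate 4 remained the lowest sum, and 11 or 12 of the 18 genes were lowest there. Of all genes at 1 CPM in 4 of 4, 34.7% were lowest in replicate 4 by total and 26.5% to 35.3% with the other scalings. The fibroblast markers had their highest sum in that library (6127 CPM), and their part in the low values was not tested.

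Surface proteins and factors of the whole Aundiff pool gave the following levels. Cd9, the protein used for enrichment, was at 298, 239, 271 and 284 CPM. Itgb1, the beta-1 integrin, was at 439, 581, 473 and 719 CPM, and its partner Itga6 at 48.0 ± 4.14 CPM. Itgb1 is also made by fibroblasts, and its highest library was replicate 4. Epcam, an adhesion protein of spermatogonia and epithelia, was at 166, 177, 203 and 136 CPM, lowest in replicate 4. Tsc22d3, the glucocorticoid-induced leucine zipper gene, was at 191 ± 3.99 CPM with a CV of 2.09%. Mcam was at 153 ± 26.9, the transcription factor Dmrt1 at 111 ± 21.3, Uchl1 at 74.7 ± 3.45, Foxo1 at 56.4 ± 7.81, Taf4b at 42.1 ± 2.43, Sall4 at 38.2 ± 6.25, Lin28a at 27.6 ± 6.90 and Adgra3 at 25.3 ± 3.56 CPM. Cdh1, the E-cadherin gene, was at 3.40 ± 0.843 CPM, although the protein is used to sort Aundiff, and Utf1 was at 0.587 ± 0.182. Of 18 genes analysed here, 17 reached 1 CPM in 4 of 4 libraries.

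**Figure D3:**
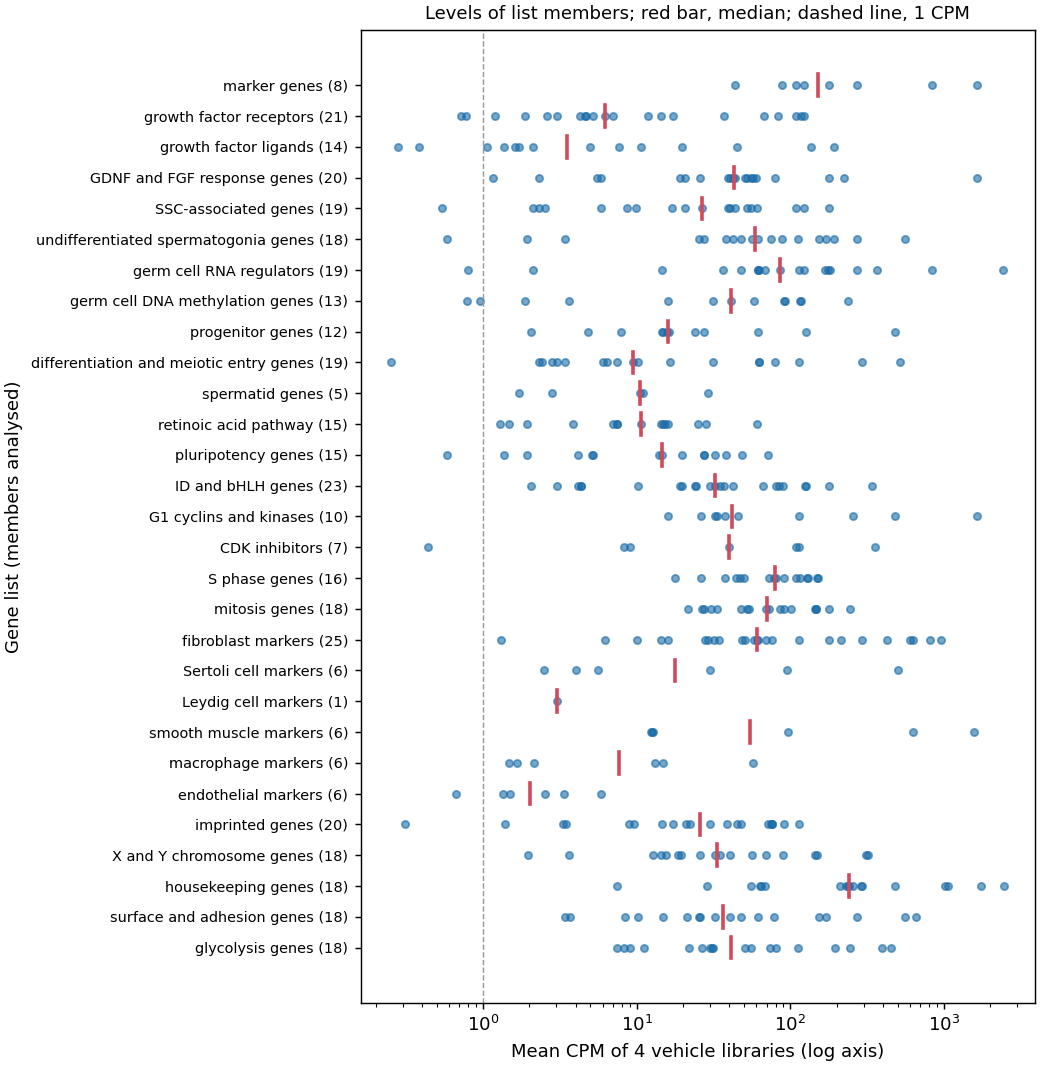
Mean CPM of the 4 vehicle libraries (log axis) for the members of each gene list, 1 point per gene, with a red bar at the list's median and a dashed line at 1 CPM; the number of members analysed stands in brackets. The medians run from 2.02 CPM for the endothelial list and 3.01 CPM for the single Leydig gene to 239 for the housekeeping list.

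Germ cell RNA regulators were among the higher lists, with 18 of 19 genes at 1 CPM in 4 of 4 libraries and 8 in the top decile. Most of these proteins act in translation control or in the piRNA pathway, which silences transposons, but the list also holds Tex101, a surface protein. Pabpc1 alone, at 2426 CPM, makes a large part of the list's mean sum of 5102 CPM. Beside Dazl, Ddx4 and Pabpc1, the surface glycoprotein Tex101 was at 415, 344, 393 and 313 CPM, the helicase Mov10l1 at 181 ± 15.7, Rnf17 at 175 ± 12.1 and Mael at 194, 164, 179.5 and 137 CPM. Tdrkh (123.5 ± 9.63), Ddx25 (113 ± 17.6), Piwil2 (85.8 ± 13.6), Tdrd1 (62.4 ± 11.2), Dnd1 (62.0 ± 5.68), Nanos3 (61.3 ± 10.2), Tdrd5 (47.8 ± 8.11) and Tdrd9 (36.5 ± 8.34) followed, and Piwil4 was at 14.6 ± 1.52 CPM. Replicate 4 was the lowest for 11 of the 18 and the highest for none, while it was the highest for 21.8% of all genes at 1 CPM in 4 of 4. The summed level of the list was 5445, 4960, 5154 and 4848 CPM. Replicate 4 had the lowest sum by total, replicate 2 by TMM and RLE scaling and replicate 3 by upper quartile scaling, so the order of these sums depends on the scaling. Genes for DNA methylation in germ cells included Tex19.1 (238 ± 24.8), Morc1 (118 ± 13.6), the maintenance methyltransferase Dnmt1 (116 ± 4.87), its partner Uhrf1 (90.7 ± 8.99), Dnmt3a (58.0 ± 4.17) and Dnmt3b (31.4 ± 2.44 CPM). Dnmt3l was at 0.784 ± 0.475 and Tet1 at 0.953 ± 0.567 CPM.

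Progenitor genes reached 1 CPM in 4 of 4 libraries for 12 of 12, with a median of 15.9 CPM. Sohlh2, a bHLH factor that prepares differentiation, was at 140.5, 127, 127.5 and 108 CPM, and its partner Sohlh1 at 24.1 ± 6.02. Neurog3, a marker of progenitors, was at 2.07 ± 0.444 CPM, Sox3 at 4.85 ± 1.13, the retinoic acid receptor Rarg at 14.8 ± 2.66 and Upp1 at 7.96 ± 1.38 CPM. Ccnd1, which is also made by fibroblasts, was at 385, 328, 501 and 702 CPM. Its highest library was replicate 4 and its lowest replicate 2, and the sum of the list (722, 651, 815 and 987 CPM) followed it.

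Genes of differentiation and meiotic entry divided by level. Sycp1, a structural protein of the synaptonemal complex, was at 552, 462, 542 and 516 CPM, and Sycp3 at 321, 288, 303 and 265 CPM. Both were in the top decile. Sycp2, of the same complex, was at 62.9 ± 6.45 CPM, Ccnd3 at 113 ± 6.78, the intercellular bridge gene Tex14 at 79.9 ± 6.66 and Tex15 at 62.3 ± 7.81. Per kb the order was reversed, with Sycp3 at 233 and Sycp1 at 146 CPM per kb. In contrast, Kit, the receptor of differentiating spermatogonia, was at 2.41, 3.84, 3.78 and 2.09 CPM, and Stra8 at 6.79, 6.96, 8.22 and 7.62 CPM. Dmc1 (16.4 ± 2.47), Hormad1 (6.04 ± 1.33), Prdm9 (3.42 ± 0.496), Rec8 (2.82 ± 0.814) and Spo11 (2.31 ± 0.882) act in meiotic recombination or chromosome pairing. Gm4969, the gene of the STRA8 partner MEIOSIN, was at 0.253 ± 0.171 CPM. In total, 17 of 19 genes analysed here reached 1 CPM in 4 of 4 libraries. Of the spermatid list, 5 of 13 genes were analysed here, the highest being Tnp1, a transition protein of condensing chromatin, at 28.9 ± 3.58 CPM. Retinoic acid genes were all under 100 CPM: the binding protein Crabp1 was at 60.5 ± 11.5, Rara at 28.3 ± 4.86, the synthesis enzyme Aldh1a2 at 10.7 ± 1.28 and the degrading enzyme Cyp26a1 at 1.94 ± 0.326 CPM.

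Several pluripotency genes were measured, and others were near 1 CPM. Dppa4 was at 71.3 ± 3.33 CPM and Sox2 at 55.1, 43.3, 54.1 and 40.2 CPM. Tbx3 (32.1 ± 4.29), Klf4 (27.5 ± 6.38), Myc (19.7 ± 3.16), Dppa5a (14.7 ± 2.11) and Zfp42 (14.1 ± 1.41 CPM) were measured in every library. Pou5f1, which encodes OCT4, was at 1.86, 2.04, 1.78 and 2.09 CPM and Esrrb at 1.38 ± 0.382. Of 15 genes analysed here, 14 reached 1 CPM in 4 of 4 libraries and none was in the top decile.

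The ID genes, the targets of the inhibitor used in the other arm of the series, differed in order between the scales. Id4 was at 179 ± 14.9 CPM, and Id3 was at 83.8, 101, 84.5 and 86.8 CPM. By CPM the 2 ranges did not overlap, with Id4 above Id3. Per kb, Id3 was at 49.8 and Id4 at 46.4 CPM per kb with overlapping ranges, since Id4 has the longer exons. Id1 was at 29.3, 45.5, 33.2 and 30.5 CPM (29.8 per kb) and Id2 at 3.51, 5.04, 3.11 and 5.01 CPM (1.71 per kb), named after their values were seen. Per kb, the range of Id1 lay below that of Id4 and above that of Id2. All 4 ID genes were highest in replicate 2 by CPM, but with TMM scaling Id2 was highest in replicate 4. Replicate 2 was the highest library for 28.0% of all genes at 1 CPM in 4 of 4 (26.4% with TMM scaling). The bHLH E-proteins that IDs bind were Tcf12 at 84.2 ± 6.24, Tcf3 at 80.2 ± 7.63 and Tcf4 at 66.2 ± 9.04 CPM. Hes1, a bHLH repressor, was at 390, 298, 337 and 326 CPM and was the highest of the 23 bHLH and ID genes analysed here on both scales, 166 CPM per kb, with its range above that of Sohlh2, the next. The bHLH partner Mga was at 125 ± 9.12 CPM.

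Cell cycle genes were measured throughout: 10 of 10 G1 genes, 16 of 16 S phase genes and 18 of 18 mitosis genes reached 1 CPM in 4 of 4 libraries. Of the D-type cyclins, Ccnd2 was at 174 CPM per kb, Ccnd1 at 102 and Ccnd3 at 12.9, with no overlap of ranges between them. Cdk4, their kinase, was at 257 ± 17.0 CPM and Cdk6 at 33.4 ± 6.30. The cyclin E genes Ccne2 and Ccne1 were at 45.8 ± 5.92 and 15.9 ± 0.703 CPM. The kinase inhibitor gene Cdkn1a, encoding p21, was at 271, 351, 369 and 428 CPM. Cdkn2b was at 84.8, 96.2, 110 and 147 CPM and Cdkn2a at 33.9, 33.7, 36.6 and 56.3 CPM, both highest in replicate 4, and Cdkn1b was at 9.06 ± 1.85. The 7 inhibitor genes summed to 495, 640, 639 and 769 CPM, lowest in replicate 1 and highest in replicate 4 under each of the 5 scalings. The fibroblast markers described below had their lowest and highest sums in the same libraries (3759 CPM in replicate 1 and 6127 in replicate 4), and their part in the inhibitor sums was not tested.

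Mitosis genes varied together between the cultures. Their summed level was 1800, 1258, 1728 and 1506 CPM in replicates 1 to 4, and 16 of the 18 genes were lowest in replicate 2, the lowest library for 24% of all genes at 1 CPM in 4 of 4 (22.2% to 28.1% with the other scalings). Replicate 2 also had the highest share of mitochondrially encoded counts (6.70%) and the lowest share of protein-coding counts (91.3%, against 92.7% to 92.9%), and the part of these in the mitosis levels was not tested. Top2a, the topoisomerase that untangles chromosomes, was at 268.5, 172, 267 and 274 CPM. Ccnb1, the mitotic cyclin, was at 218, 136, 188 and 172 CPM, and Cdk1, its kinase, at 58.2, 34.2, 50.9 and 46.6 CPM. Replicate 2 was the lowest for each of these. Aurka (37.5, 20.3, 31.7 and 20.8 CPM), Cenpa, Ccna2, Birc5 and Ube2c were also lowest in replicate 2. S phase genes had the same order of highest and lowest sums, 1522, 1184, 1396 and 1211 CPM, with 11 of 16 genes highest in replicate 1, the highest library for 19.6% of all such genes (19.12% to 27.7% with the other scalings). The helicase subunit Mcm6 was at 183, 136, 156 and 132.5 CPM, the ribonucleotide reductase subunit Rrm1 at 172, 136, 148 and 144, and Pcna, the clamp of DNA polymerase, at 98.4, 66.5, 78.0 and 67.9. With the other scalings 15 or 16 of 18 mitosis genes were lowest in replicate 2 and 11 or 12 of 16 S phase genes were highest in replicate 1.

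Since the mitosis genes moved together, their promoter windows were read as well. Of 15 windows of 15 mitosis genes, 14 held CCAAT, and of 15 windows of 13 S phase genes, 12 did, against 33.8% of all windows and 4 of 17 windows of fibroblast markers. Other lists differed widely: 12 of 17 windows of SSC-associated genes held it, 14 of 22 of germ cell RNA regulators and 0 of 15 of surface and adhesion genes. The windows of the highest genes are shown with the motif in capitals, Top2a from chr11:99024190-99024439 and Ccnb1 from chr13:100786487-100786736, both on the minus strand of GRCm38.p6.
Top2a: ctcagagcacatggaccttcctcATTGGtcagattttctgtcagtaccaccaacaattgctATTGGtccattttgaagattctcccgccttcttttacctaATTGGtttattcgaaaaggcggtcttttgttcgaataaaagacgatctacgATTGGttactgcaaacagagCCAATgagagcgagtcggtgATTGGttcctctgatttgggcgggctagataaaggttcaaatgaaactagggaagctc
Ccnb1: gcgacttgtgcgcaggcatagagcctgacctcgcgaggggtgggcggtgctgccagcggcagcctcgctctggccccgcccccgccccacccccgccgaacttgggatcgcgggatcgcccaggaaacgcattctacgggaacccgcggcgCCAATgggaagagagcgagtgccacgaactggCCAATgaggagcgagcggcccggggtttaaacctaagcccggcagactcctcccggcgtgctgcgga
Top2a holds 6 matches and Ccnb1 2. These matches were not tested against the levels.

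Many of the analysed genes used as markers of other cell types reached 1 CPM in every library, but not all. Markers whose names were not found among the listed genes are outside these counts. Fewer cells of a type and less RNA per cell cannot be told apart in bulk RNA. Of 28 names in the fibroblast list 25 were analysed here, 24 reached 1 CPM in 4 of 4 libraries, and their sum was 3759, 4761, 4564 and 6127 CPM. Of the names not analysed, Ctgf and Cyr61 are older names of the analysed genes Ccn2 and Ccn1, which leaves Fap as the missing gene. Sparc, a matrix protein, was at 708, 902, 935 and 1253 CPM, and Vim, the intermediate filament of mesenchymal cells, at 632, 759, 752 and 1071 CPM. Timp1 (536, 486, 581 and 797), Col1a2 (309, 423, 432 and 540) and the fibronectin gene Fn1 (209.5, 369, 249 and 336 CPM) were also high, while Pdgfra, named after its values were seen, was at 14.5 ± 0.571 CPM. Of the 24, 15 were highest in replicate 4 (21.8% of all genes at 1 CPM in 4 of 4), and 16 were lowest in replicate 1 (29.2% of all such genes). The list sum was highest in replicate 4 and lowest in replicate 1 with each of the 5 scalings. Acta2, smooth muscle actin, was at 1281, 1719, 1350 and 1946 CPM, and Tagln at 523, 671, 568 and 767 CPM. Activated fibroblasts make both, and the more specific muscle gene Myh11 was at 12.4 ± 5.07 CPM. The smooth muscle list summed to 1912, 2548, 2026 and 2876 CPM. The part that these cells have in the values of replicate 4 was not tested. Without replicate 4 the mean sum of the fibroblast list was 4361 CPM instead of 4803.

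Markers of other testis cells were measured at unequal levels. Of 9 macrophage markers, 6 were analysed here, led by Lyz2 at 50.1, 27.9, 59.5 and 90.1 CPM, with Cd68 at 14.8 ± 2.96, and their sum was 86.9, 56.5, 92.1 and 125 CPM. Of 8 Leydig cell markers, Star was the only one analysed here, at 3.01 ± 0.355 CPM. Those not analysed include the Leydig markers Cyp11a1, Cyp17a1 and Insl3 and the Sertoli markers Amh, Gata4 and Fshr. Of 14 Sertoli cell markers, 6 were analysed here, and Ctsl, a protease that many cell types make, was at 505 ± 38.7 CPM. The transferrin gene Trf was at 116, 94.4, 93.2 and 75.9 CPM, highest in replicate 1 and lowest in replicate 4. The transcription factor genes Sox9 and Wt1 were at 29.9 ± 3.89 and 4.06 ± 0.680 CPM, Clu was at 5.59 ± 1.49 and Rhox5 at 2.49 ± 1.66. The 6 genes summed to 690, 672, 590 and 616 CPM. The 6 endothelial markers analysed here summed to 17.5, 13.9, 17.6 and 12.2 CPM, with Kdr at 5.88 ± 1.44 and Pecam1 at 3.36 ± 1.21. Of these 6, 3 reached 1 CPM in 4 of 4 libraries.

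**Figure D4:**
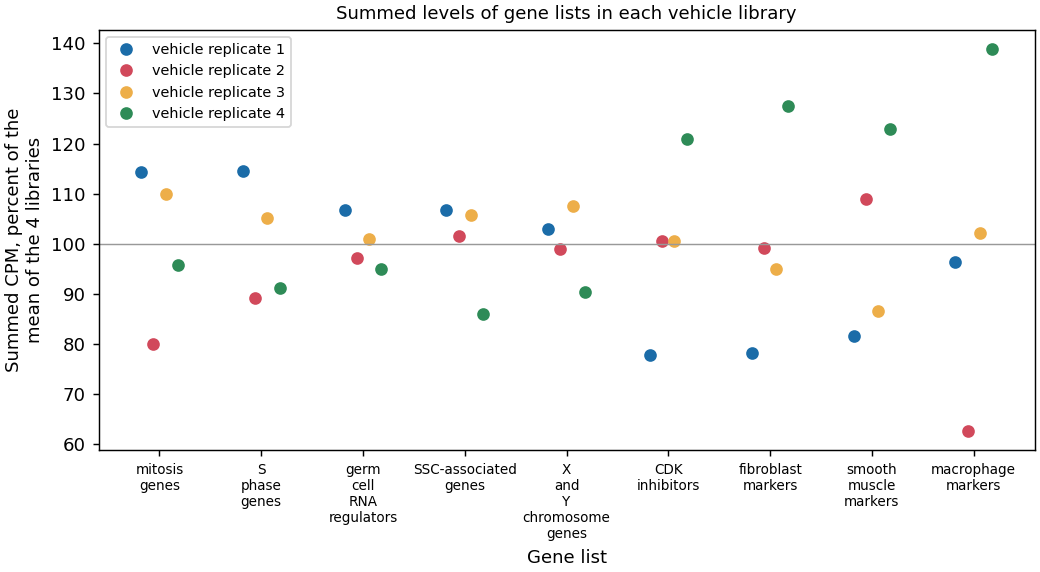
Summed CPM of 9 gene lists in each vehicle library, as a percent of the mean of the 4 libraries, coloured by replicate. Replicate 2 is lowest for the mitosis list (1258 CPM), and replicate 4 is highest for the fibroblast list (6127 CPM) and lowest for the SSC-associated list (686 CPM).

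Imprinted genes are read from 1 parental copy in most tissues, and male germ cells carry the paternal pattern. H19, a maternally read RNA, was at 30.6, 30.0, 27.6 and 31.5 CPM, and Igf2, its paternally read neighbour, at 42.5, 41.5, 42.5 and 52.6 CPM. Cdkn1c was at 113.5 ± 23.7, Ndn at 90.7 ± 7.85, Meg3 at 76.1 ± 12.2, Kcnq1ot1 at 75.4 ± 1.58, Mest at 48.0 ± 9.48, Snrpn at 22.1 ± 1.44 and Peg3 at 20.8 ± 3.03 CPM. Fibroblasts read these genes too, and the share of each cell type was not tested. Among glycolysis genes, 18 of 18 reached 1 CPM in 4 of 4 libraries, with Aldoa at 453 ± 27.4, Pkm at 393 ± 29.3 and Ldha at 200.3, 235, 221 and 318.5 CPM, highest in replicate 4. Gapdh was at 55.7 ± 6.54, Pgk1 at 7.46 ± 0.505 and Eef1a1 at 240 ± 8.24 CPM. Counts of genes with near-identical copies such as these are uncertain, since it is not stated how reads shared with copies were counted. Among the usual reference genes, Rplp0 was at 1733 ± 49.2 CPM (CV 2.84%), Ywhaz at 291 ± 9.50 (3.26%) and Hprt at 238 ± 9.13 (3.84%), while B2m was at 232, 235, 289 and 392 CPM (25.9%).

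The relative spread between the cultures was larger at low levels. The median CV was 10.8% over the 9203 genes with a mean of at least 10 CPM. It was 24.9% for genes of 1 to 10 CPM, 11.7% for 10 to 100, 8.17% for 100 to 1000 and 8.35% for 1000 CPM or more. Of the tested genes, 6804 of 13504 (50.4%) spread beyond counting error (Poisson deviance with 3 degrees of freedom, Benjamini-Hochberg adjusted p under 0.05). The genes of smallest CV at 100 CPM or more were the tubulin Tubb5 (474, 475, 481 and 475 CPM, CV 0.663%), the tRNA synthetase complex members Aimp1 (0.683%) and Eprs (0.891%), the 14-3-3 gene Ywhab (0.991%), the asparagine synthetase Asns, Strap, Caprin1, Bloc1s2, the chaperone Cdc37 and the calmodulin gene Calm3 (1.13% to 1.46%). They were picked for their small spread, so their CVs are a description.

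To find genes that differed between cultures more than genes of like level, edgeR's residual quasi-dispersion of each gene was set against its fitted prior. Of 13504 genes, 16 (0.118%) were called at an adjusted p under 0.05, and 825 had an unadjusted p under 0.05. None of the 8 markers was called (edgeR, smallest adjusted p 0.902, 0 at an unadjusted p under 0.05, 0 DESeq2 dispersion outliers). Of 331 tested members of all lists, none was called either, 58 had an unadjusted p under 0.05, and 5 were DESeq2 outliers (Lhx1, Ccnd1, Lyz2, Postn and Timp3). The count was 7 without replicate 1, 9 without replicate 2, 30 without replicate 4 and 42 without the filter on low counts, and DESeq2 gave 89 dispersion outliers. The 16 called genes were 12 protein-coding genes, 3 pseudogenes and 1 lincRNA. Spread beyond counting error (Poisson deviance) was called for 8 of 8 markers, with a highest adjusted p of 0.0177. It was called for 225 of 331 tested list members and for 50.4% of all tested genes.

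Several called genes had 1 or 2 cultures far from the others. Haus8, a subunit of the augmin complex of the mitotic spindle on chromosome 8 from 71248561 to 71272934, was at 658, 25.6, 435 and 523 CPM (adjusted p = 6.65e-05, edgeR). Replicate 2 was far below the other 3. Ccdc40, a gene of motile cilia, was at 6.79, 121, 14.4 and 16.1 CPM (adjusted p = 6.65e-05), high in replicate 2 alone. Isoc2a was at 34.7, 11.9, 37.5 and 6.47 CPM (adjusted p = 0.0111), with replicates 1 and 3 above 2 and 4. Tmem69 was at 9.75, 45.7, 40.6 and 56.2 CPM (adjusted p = 0.0115), lowest in replicate 1. Its neighbour Ipp, 13390 bases away on chromosome 4, was at 52.6, 23.3, 20.5 and 18.4 CPM, highest in replicate 1, and was not called (adjusted p = 0.0983; named after its values were seen). The lincRNA Gm4316 was at 18.1, 68.1, 85.8 and 19.09 CPM, higher in replicates 2 and 3. Nol4l (5.70, 6.36, 32.0 and 18.7 CPM), the defensin Defb36 (42.6, 7.32, 29.6 and 30.0) and Gm11808 (7.34, 11.5, 49.0 and 49.4) had other orders.

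The pseudogenes that were called share sequence with expressed genes, so reads placed on them are uncertain. Gm28437, in a stretch of chromosome 1 from 24613189 to 24613971, was at 46.6, 848, 98.5 and 707 CPM (adjusted p = 4.48e-05), high in replicates 2 and 4. Gm3699 was at 58.8, 6.48, 9.67 and 10.2 CPM, high in replicate 1, and Gm10269 at 2.52, 2.40, 29.6 and 2.29 CPM, high in replicate 3.

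A second set of called genes was highest in replicate 4. S100a6, a calcium-binding protein common in fibroblasts, was at 2669, 3295, 4233 and 11410 CPM (adjusted p = 0.00691), the fifth gene by mean CPM. The chemokine genes Ccl2 (55.3, 30.9, 85.2 and 133 CPM, adjusted p = 0.00691) and Ccl7 (77.9, 76.1, 117 and 202 CPM, adjusted p = 0.0290), which lie 8259 bases apart on chromosome 11, had their highest values there too. Lrrc17 was at 27.4, 32.2, 24.2 and 102 CPM (adjusted p = 0.00394). Crct1, named after its values were seen, was at 63.1, 62.5, 80.7 and 157 CPM and was also called. Fibroblast markers (3759, 4761, 4564 and 6127 CPM) and macrophage markers (86.9, 56.5, 92.1 and 125 CPM) were also highest in replicate 4, and their part in these genes was not tested. In all, 7 of the 16 called genes were highest in replicate 4, against 21.8% of all genes at 1 CPM in 4 of 4. The called genes were picked for spread in these same libraries, so the shares cannot be compared. For Gm11808, among the 7, another library was nearly as high. Without replicate 4, 12 of the 16 were still called, while S100a6, Lrrc17, Ccl7 and Crct1 were not.

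The filter on low counts removes genes that are near 0 in some libraries, whatever their level in the others. It removed 3663 genes, 6 of them with a mean of at least 5 CPM, and 10 of the removed genes were called when no filter was used (named after their values were seen). Grin1, a subunit of the NMDA glutamate receptor on chromosome 2, had 4, 5700, 3276 and 6 counts (0.438, 684, 364 and 0.626 CPM). It was thus high in replicates 2 and 3 and at the level of a few counts in 1 and 4. Cadm3, a neural adhesion molecule on chromosome 1, had 1, 0, 7 and 2381 counts (248 CPM in replicate 4). Both had an adjusted p of 4.84e-10 without the filter. The ribosomal pseudogene Rps18-ps1 had 10, 5, 897 and 2 counts, and the pseudogene Gm9234 had 4, 10, 9 and 607. Each of these 4 genes was thus high in 1 or 2 cultures only.

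**Figure D5:**
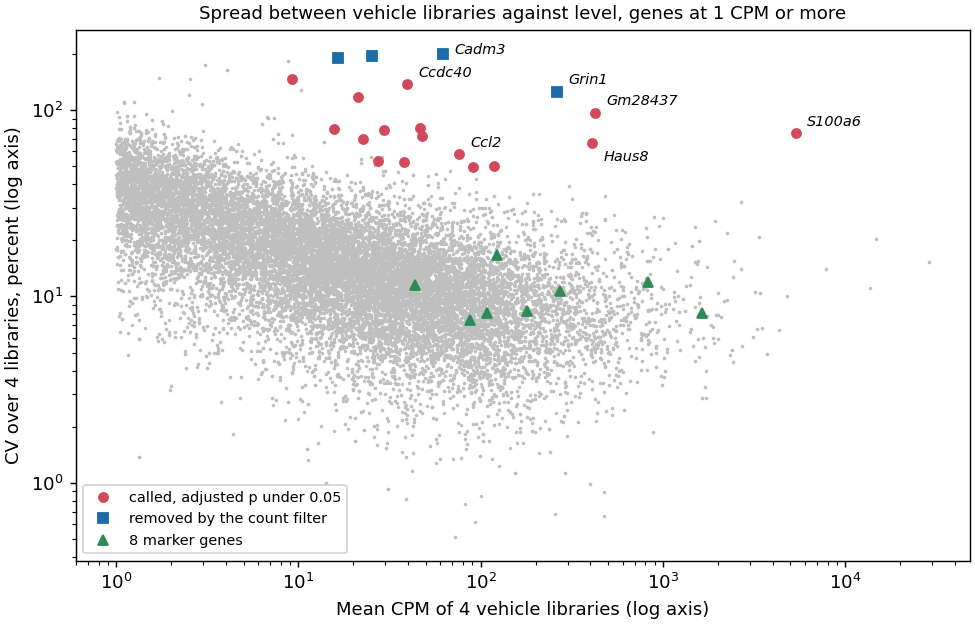
CV over the 4 vehicle libraries (percent, log axis) against mean CPM (log axis) for genes with a mean of at least 1 CPM (grey), the 16 genes called by edgeR (red circles), 4 genes removed by the count filter (blue squares) and the 8 markers (green triangles). The markers lie within the grey band with CVs of 7.45% to 16.7%, while S100a6, at 75.1%, stands far above genes of its level.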

How the data were processed

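Per the labels and the study's methods, RNA was copied by poly(A) priming and template switching, cut with a transposase and sequenced on a NextSeq2000, and reads were mapped to GRCm38 with the RNAsik pipeline. The submitters' processing notes name STAR, Salmon, featureCounts, edgeR and limma without versions. The authors deposited whole-number counts and CPM per gene, the count scaled to a common library total. The use of strand and the rule for listing genes are not given in the sources used here, so a gene and an antisense partner cannot be told apart, and counts of genes with near-identical copies are uncertain. Columns holding the authors' own comparison (log fold changes, average expression, p-values) and 8 AGX51 columns were not used. CPM was recomputed from the deposited counts and differed from the deposited CPM by at most 0.0005. Of 17167 gene IDs, 17151 matched GENCODE M21, which gave positions and exon lengths. The table holds 22 gene names turned into dates. Spread was tested with edgeR 4.0.16 in R 4.3.3 (TMM, filterByExpr with a minimum count of 10, an intercept-only quasi-likelihood fit with a robust prior, Benjamini-Hochberg adjustment), with DESeq2 1.42.0 dispersion outliers as an alternative, and was tested on simulated data. Libraries are separate cultures, and p-values measure the spread between them. No test between groups was made. The text names the 8 markers, the 20 highest nuclear-encoded and 3 highest mitochondrially encoded genes, the first 15 called genes with a mean of at least 5 CPM, the 10 genes of lowest CV at 100 CPM or more, and of each list the 6 highest members and, in lists of up to 20, any other. Others are said to be named after their values were seen. The markers and lists were chosen with earlier results of these data known.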

Additional observations from a re-analysis of the deposited data

Results flagged for a closer look

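For each named gene, list sum and library measure, the library farthest from the others was looked for by Dixon's ratio, the gap to the nearest library over the whole range, against its 95% critical value for 4 libraries. Of 279 sets of values, 26 held such a library (9.32%), and chance gives about 1 set in 20. These 2 shares cannot be compared, since some genes were named because 1 library stood apart and list sums share members with single genes. In replicate 4, the GDNF co-receptor gene Gfra1 (92.1 CPM), the GDNF-responsive repressor Bcl6b (43.6 CPM) and the Y-linked Eif2s3y (71.1 CPM) lay below the other 3 libraries, as did the summed level of the DNA methylation genes (736 CPM). Lying above the other libraries in replicate 4 were Lrrc17 (102 CPM), Cadm3 (248 CPM), Gm9234 (63.3 CPM), Cdkn2a (56.3 CPM), Igf2 (52.6 CPM) and Fgf2 (3.13 CPM). Fibroblast markers summed to 6127 CPM in that library, the highest of the 4, and their part in these values was not tested.

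In replicate 2, Top2a (172 CPM) lay below the other libraries, while Ccdc40 (121 CPM), Mcam (193 CPM), Igf1r (132.5 CPM) and Id3 (101 CPM) lay above them. The share of counts from mitochondrially encoded genes was high there (6.70%), and the share from protein-coding genes was low (91.3%). In replicate 1, Il6st (52.9 CPM) lay below, and Dusp6 (272 CPM), Gm3699 (58.8 CPM), Ipp (52.6 CPM), Rplp0 (1806 CPM) and the sum of the spermatid genes (61.0 CPM) lay above. In replicate 3, Gm10269 (29.6 CPM), Rps18-ps1 (99.7 CPM) and Tubb5 (481 CPM) lay above the others. Tubb5 and Rplp0 have small CVs (0.663% and 2.84%), so the distance is small against the level.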

How the results depend on the processing

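The count of genes at 1 CPM in 4 of 4 libraries (13719) was 13828 to 13955 with 1 library left out and 10386 with a threshold of 5 CPM. The share of the 100 highest genes (23.3%) was 23.0% to 23.8% with 1 library left out and 19.3% with mitochondrially encoded genes left out. The median CV (10.8%) was 9.38% to 10.7% with 1 library left out, 14.3% for genes with a mean of at least 1 CPM and 8.75% for those of at least 50 CPM. The number of genes called for spread (16) was 7 to 30 with 1 library left out: 7 without replicate 1, 9 without replicate 2, 13 without replicate 3 and 30 without replicate 4. Of the 16, 7, 9, 12 and 12 were among these calls, and fewer libraries give the test less information. It was 42 with no count filter and 89 as DESeq2 dispersion outliers, both including all 16, and 11 without edgeR's robust prior. The remaining settings gave 15 to 17, and with a mean of at least 10 CPM 12 of the 16 were among the 17 called (Gm10269 was not tested, and Nol4l, Defb36 and Crct1 were not called). The count of genes beyond counting error (6804) was 4723 to 6086 with 1 library left out. The library with the highest or lowest sum changed with the scaling for some lists: the germ cell RNA regulators were lowest in replicate 4 by total, 2 by TMM and RLE and 3 by upper quartile, the markers were highest in replicate 3 or 1, and the GDNF and FGF response genes in 3 or 4. Orders between genes also turned per kb (Dazl and Ccnd2, Sycp1 and Sycp3, Igf1r and Ret). Depth limits values near 0.313 to 0.360 CPM, such as those of Gdnf and Gm4969. Leaving Gm42418 out of the total, and counting protein-coding genes only (12351 at 1 CPM), were alternatives chosen after seeing the data. No paired analysis was possible because only the vehicle libraries were used, so no groups were compared.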
